A study of Caenorhabditis elegans with 2 samples.

Results

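The 8 genes described here encode GATA factors, zinc finger proteins that bind DNA around a GATA core, and they direct the gut and epidermal lineages of Caenorhabditis elegans. They were chosen by name: end-1, end-3, elt-2 and elt-7 of the gut, and elt-1, elt-3, egl-18 and elt-6 of the epidermis. All 8 were found among the 19973 protein-coding genes on the nuclear chromosomes of the Ensembl WBcel235 annotation, and all lie on the plus strand. EFL-1, an E2F-family transcription factor, was located on the genome by ChIP-seq, the sequencing of DNA pulled down with an antibody to the factor, in whole L1 larvae of strain MT10430, which carries lin-35(n745) on its first chromosome. The lin-35 gene encodes the worm's retinoblastoma-like pocket protein. The larvae were of mixed sex, their age is unknown per the labels, and biological replicates 2 and 3, each a biosample of its own per the labels, form the single group. Every value therefore comes from lin-35 mutant animals, with no wild type or other stage beside them, and the control experiment is not used here. Whole larvae mix all tissues, so a peak shows no cell type, and binding in few cells cannot be told apart from weak binding in many.

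END-1 and END-3 specify the endoderm in the early embryo. They turn on ELT-7 and ELT-2, which then maintain intestinal gene expression into adult life. ELT-1 specifies the epidermis in the embryo and acts ahead of ELT-3, a factor of the main body epidermis, while EGL-18 and ELT-6 maintain the stem-like seam cells. E2F factors with a DP partner and a pocket protein mostly regulate genes of cell division, and in the worm they belong to the DREAM complex together with the DNA-binding subunit LIN-54.

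The authors deposited 4 lists of regions on the ce11 build. They hold 25572 regions for replicate 2 and 27203 for replicate 3. A joint list made from both holds 21875, and an IDR list holds 4534. IDR is a method that compares how peaks rank in the replicates. The 4534 IDR peaks were the joint regions of highest signal, a strength on the authors' own scale, from 46.3 upward. Membership thus equals a cut on joint signal and does not by itself show that the replicates agree at a given peak. Ranks given here count from 1 at the strongest region of a list, and the read depth behind the lists is unknown.

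Few of the 8 GATA factor genes held strong EFL-1 binding, taken as a summit of the IDR list. From 5000 bp upstream of the first annotated 5' end through the end of the gene, 1 of the 8 genes, end-3, held a summit of the IDR list. That peak lay 46 bp upstream of a neighbouring gene, aip-1, and no IDR summit in any of the 8 windows had a GATA factor gene as its nearest. Over all protein-coding genes, 34.7% held an IDR summit in a window built this way, against 12.5% of the GATA factor genes. At the promoter itself, taken as 1000 bp before and 500 bp after each 5' end, 0 of the 8 genes held an IDR summit, against 19.7% of all genes. The shares among genes of like window length summed to 3.04 of the 8 genes, against 1 observed. With 8 genes these shares are a description and were not tested.

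The sequences under 4 summits are shown as examples for the pattern search described below. They are the IDR peak in the end-3 window, the strongest region nearest end-3 itself, the weak region at the elt-7 start, and the strongest region inside elt-1. Each runs 5′ to 3′ on the plus strand of WBcel235 (ce11), 100 bp to each side of the summit, and stops short of any annotated UTR. Capitals mark matches of 8 patterns searched on both strands: TTCCCGC with its variants TTCGCGC and also TTGGCGC and then TTGCCGC as E2F-like, TTTGAA or else TTCGAA as like the CHR element of LIN-54, and TGATAA or else AGATAA as GATA-like. None of these patterns contains another. A match in capitals may read as the reverse complement.
aip-1 to ddx-17, in the end-3 window, chrV:14012187-14012332: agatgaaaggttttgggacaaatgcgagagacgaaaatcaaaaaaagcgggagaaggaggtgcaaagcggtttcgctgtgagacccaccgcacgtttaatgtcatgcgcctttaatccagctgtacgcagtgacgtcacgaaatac
end-3 upstream, chrV:14013751-14013951: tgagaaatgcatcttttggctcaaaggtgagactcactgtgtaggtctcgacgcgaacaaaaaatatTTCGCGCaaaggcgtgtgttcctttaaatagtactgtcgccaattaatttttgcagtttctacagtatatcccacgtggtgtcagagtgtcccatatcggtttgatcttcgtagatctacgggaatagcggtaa
elt-7 start, chrV:4770560-4770669: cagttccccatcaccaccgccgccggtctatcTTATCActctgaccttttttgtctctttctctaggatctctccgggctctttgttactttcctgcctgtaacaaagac
elt-1 intron, chrIV:9617446-9617646: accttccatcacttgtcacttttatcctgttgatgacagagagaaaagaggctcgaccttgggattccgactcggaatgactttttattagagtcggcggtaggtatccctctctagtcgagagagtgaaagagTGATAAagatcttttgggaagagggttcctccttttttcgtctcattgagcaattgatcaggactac

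The strongest peak in the 8 windows belonged to the end-3 neighbourhood. The end-3 gene (WBGene00001311) lies on chromosome V from 14014695 to 14015980, and the peak on chromosome V from 14012159 to 14012404, with its summit 2408 bp upstream of the end-3 start. On the authors' signal scale it reached 385 in the joint list, which was made from both replicates, and ranked 770 of 21875 regions. In the replicates' own lists the signal was 258 (rank 657 of 25572) in replicate 2 and 130.0 (rank 912 of 27203) in replicate 3, and the summits lay 18 bp and 6 bp from the joint one. Both replicates thus placed this peak high in their lists, at percentiles 97.4 and 96.7, where 100 is the strongest. It lay between aip-1, a stress-response gene for a zinc finger protein of the proteasome, and ddx-17, an RNA helicase gene on the opposite strand. Its printed stretch of 146 bp holds no match of the 8 patterns, but it stops at aip-1, and 86 bp past the summit lies a TTTGAA match on the reverse strand.

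A weaker region lay nearest to end-3 itself. Its summit was 844 bp upstream of the end-3 start, between aip-1 and end-3, and it was the only region in the 8 windows outside the IDR list with a −log10 q value over 2 (2.48 in the joint list). The joint signal was 30.6 (rank 6128), below 46.3, the lowest signal of any IDR peak. Replicate 2 gave 17.998 (rank 6512, −log10 q 2.42) and replicate 3 gave 9.40 (rank 10921, −log10 q 0.556), so the replicates placed it unequally. The printed window carries TTCGCGC, beginning 33 bp before the summit. That pattern occurred within 100 bp of the summit in 5.76% of IDR peaks and 1.71% of the joint regions outside the IDR list. For any of the E2F-like patterns searched, the shares were 18.7% and 8.70%. The weakest joint region in this window, 4438 bp upstream and inside an intron of ddx-17, ranked 15506. Within the end-3 gene, replicate 3 alone had a summit, 254 bp past the start in a coding exon (signal 11.1, rank 8340). The other replicate summits lay over the neighbours. Replicate 2 had them at -4450, -3021 and -1706 bp (ranks 10697, 7978 and 24267), the first of them 12 bp from the joint summit 4438 bp upstream. Replicate 3 had them at -4974 and -3438 bp (ranks 22569 and 21864). The summit at -1706 bp falls in a coding exon of aip-1 and the others in ddx-17.

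**Figure D1:**
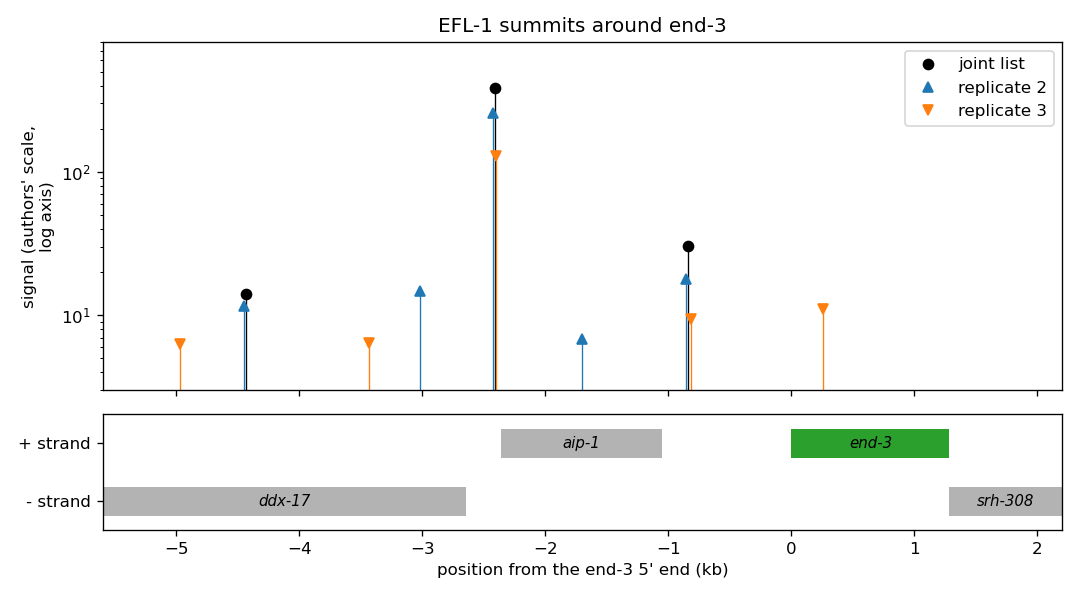
EFL-1 summits around end-3. Above, points and stems give the authors' signal (log axis, each list on its own scale) of each summit in the joint list and in replicates 2 and 3 against the distance in kb from the end-3 5' end, and below, bars are the protein-coding genes on each strand. The tall summit of 385 in the joint list stands 2408 bp upstream, just ahead of aip-1, and the summit 844 bp upstream of end-3 reaches 30.6.

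The sister gene end-1 had no IDR summit. It lies 27620 bp upstream of end-3, on chromosome V from 13985128 to 13987074 (WBGene00001310). Its 3 joint summits all lay far upstream, at -4926, -4714 and -4259 bp, within the neighbouring gene eol-1. The strongest of them, at -4926 bp in a coding exon of eol-1, had a joint signal of 22.8 (rank 8033). The nearest replicate 2 summit had a signal of 12.9 (rank 9299, 13 bp away) and the nearest replicate 3 summit 10.6 (rank 8903, 73 bp away). The joint summits at -4714 bp, in an intron, and -4259 bp, in the 5' UTR, had signals of 17.6 (rank 11019) and 17.7 (rank 10907). Replicate 2 had its strongest end-1 summit at the latter place (signal 15.8, rank 7467) and another at -4707 bp (rank 14450). Replicate 3 had weaker ones at -4501 and -2520 bp (ranks 10590 and 19186). Next to the end-1 start itself the joint list held nothing: within the gene, replicate 2 alone had a summit, at 1647 bp (rank 14608). The nearest IDR summit was 17468 bp downstream of the end-1 start, 48 bp upstream of ric-7.

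The main intestinal factor gene elt-2 carried no strong region near its start. It lies on the X chromosome from 10481240 to 10483441 (WBGene00001250). The single joint summit in its window, at -4928 bp, had a signal of 13.6 (rank 16403). The 5' end nearest to it was that of another gene, C39B10.7, and it lay 561 bp upstream of that end. Replicate 2 had no summit in the window, and replicate 3 had 3, at -2299, -623 and 337 bp, of ranks 26309, 22172 and 25915. That at -2299 bp was likewise nearest to C39B10.7, 2068 bp past its 5' end. The replicate summits nearest to the joint summit lay just outside the window, in regions that overlap the joint region. In replicate 2 the nearest was 164 bp away (signal 27.0, rank 4766), and in replicate 3 it was 137 bp away (signal 21.8, rank 4109). An IDR peak ended 29 bp inside the window, with its summit just outside at -5129 bp (chromosome X, 10475953 to 10476268, signal 50.8, rank 4276). That summit lay 152 bp past the end of elt-4, a short GATA factor gene 5280 bp upstream of elt-2, and 201 bp from the weak joint summit. The 5' end nearest to the IDR summit was that of elt-4, 564 bp away.

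At elt-7, which overlaps with elt-2 in function, a weak region sat on the start itself. The gene lies on chromosome V from 4770670 to 4773086 (WBGene00015981), and the joint summit was 10 bp upstream of the first 5' end, with a signal of 15.9 (rank 12753, −log10 q 0.320). Replicate 3 had a summit 1 bp from it (signal 9.28, rank 11179), and replicate 2 had no summit anywhere in the window. The other replicate 3 summits, at -4783 and -4073 bp (ranks 14523 and 25066), lay in the neighbouring gene C18G1.8. The printed stretch upstream of the start holds a TGATAA match on the reverse strand, beginning 68 bp before the summit, and no E2F-like match. The nearest IDR summit was 14816 bp upstream of elt-7, and 125 bp upstream of the germ granule gene pgl-3.

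The 3 joint regions of the epidermal gene elt-1 all lay in introns. It lies on chromosome IV from 9614995 to 9620280 (WBGene00001249) and has 6 annotated 5' ends. Its strongest joint summit, at 2551 bp, had a signal of 21.5 (rank 8616). Replicate 3 placed a summit 26 bp from it (signal 12.8, rank 6816), but the nearest replicate 2 summit was 650 bp away. Conversely, the joint summit at 3122 bp (signal 12.5, rank 18773) had a replicate 2 summit at 79 bp (rank 10814) and none near it in replicate 3. The weakest, at 845 bp, lay 150 bp upstream of an internal 5' end, ranked 19503, and had its nearest replicate 2 summit 179 bp away (rank 12602). Thus no joint summit of elt-1 had a summit of both replicates within 150 bp. The replicate 3 summit near 2551 bp also falls in the piRNA gene 21ur-15550, and its only other summit lay upstream at -3244 bp (rank 21054), in a non-coding RNA gene. The printed window at 2551 bp holds TGATAA, beginning 34 bp past the summit. No IDR summit was closer than 33020 bp, the largest such distance among the 8 genes, and that summit lay 142 bp upstream of amph-1.

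Of the 8 genes, elt-3 was the 1 without any joint region. Its window spanned 11343 bp (gene on the X chromosome from 13934874 to 13941216, WBGene00001251). Replicate 2 had summits at 5505 and 6052 bp, of ranks 19202 and 16918, and replicate 3 had 1 at 5384 bp, of rank 27145. These all lay near the 3' end of the gene, and none stood above percentile 33.8 of its list. They were 653, 1200 and 532 bp past an internal annotated 5' end of elt-3. The nearest IDR summit lay 14300 bp upstream of elt-3.

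The seam cell genes egl-18 and elt-6 lie in tandem on chromosome IV, 136 bp apart, so the elt-6 window covers the end of egl-18. The egl-18 gene (1902322 to 1917840, WBGene00001186) has the longest window, 20519 bp, and held 10 joint summits, 9 of them in introns. Their signals ran from 11.4 to 17.1 (ranks 21692 to 11488), and none had a −log10 q value above 0.438. The strongest, at 4649 bp, had a replicate 2 summit 18 bp away (signal 14.4, rank 8198), but the nearest in replicate 3 was 1174 bp away. The summit at 2122 bp was matched in both, 34 bp away in replicate 2 (rank 16464) and 7 bp away in replicate 3 (rank 12636). The next in strength, at 6344 bp (signal 15.9, rank 12742), overlaps the non-coding RNA gene F55A8.4 and was matched in replicate 2 alone, 34 bp away (rank 9203). Replicate 2 had 10 summits in the egl-18 window, of which the strongest was at -1146 bp (signal 16.4, rank 7134), and replicate 3 had 12. At elt-6 (1917977 to 1921643, WBGene00001253) there were 2 joint summits. The stronger, at -1442 bp (signal 13.7, rank 16287), lies in an egl-18 intron and counts for both genes, and the other, at 2445 bp in an elt-6 intron, had a signal of 12.2 (rank 19673). Replicate 2 had none in the elt-6 window and replicate 3 had 5, the strongest at -3173 bp (signal 13.05, rank 6651), in a coding exon of egl-18. The others lay at -1953, -1423, -1222 and 1719 bp, with ranks of 24449, 11324, 27096 and 12040, and the last is in a coding exon of elt-6. The nearest IDR summit to either gene, rank 3745, lay 5954 bp past the elt-6 start and 70 bp upstream of denn-4.

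**Figure D2:**
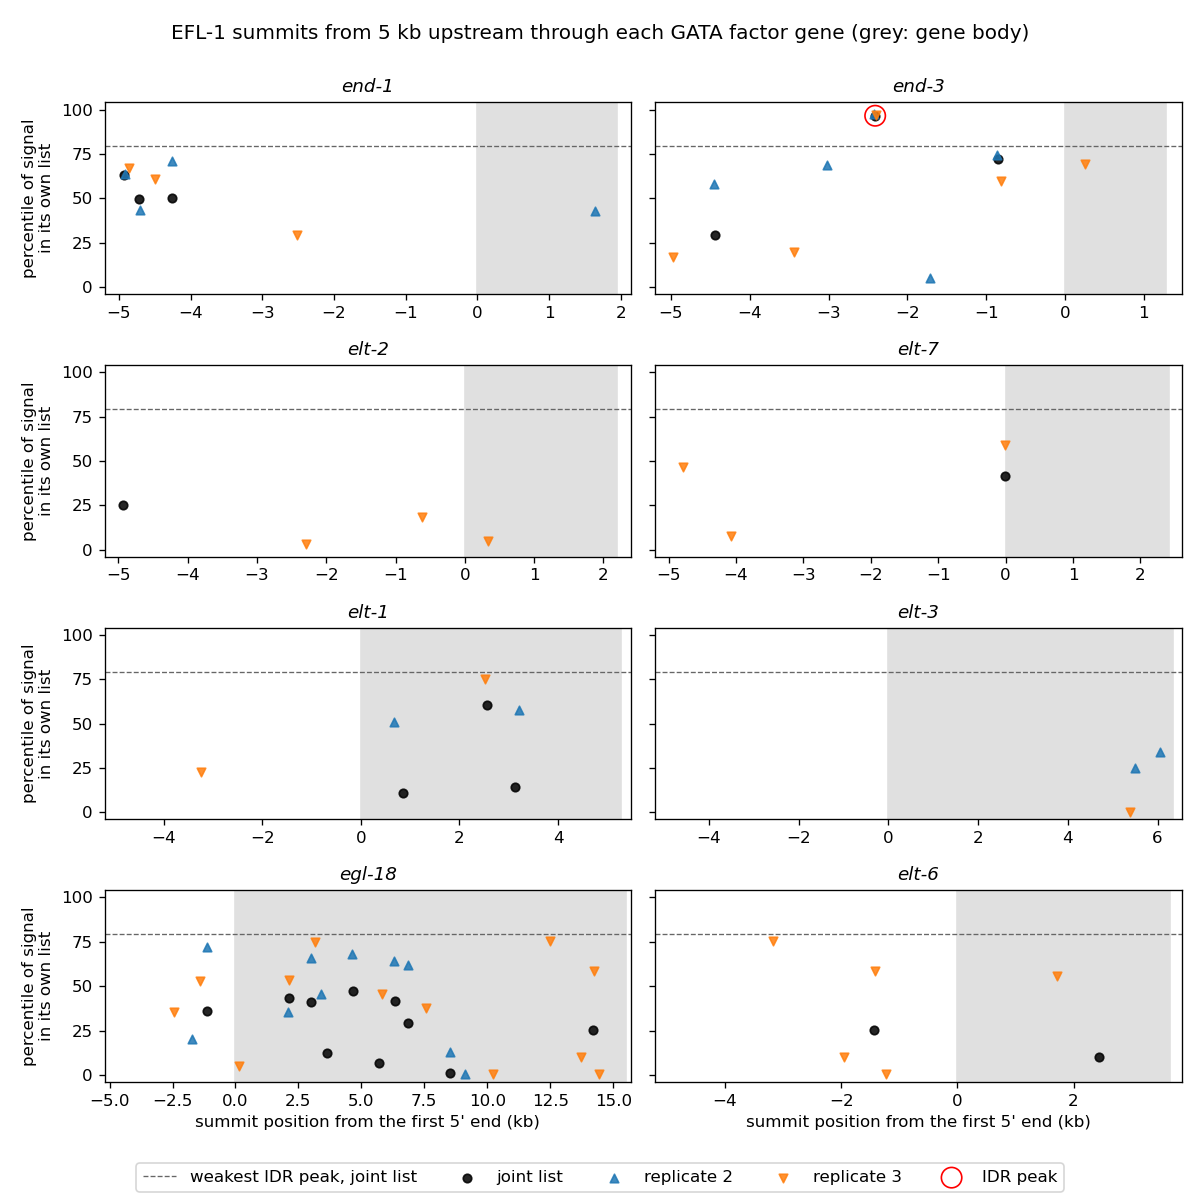
EFL-1 summits in the windows of the 8 GATA factor genes. Each panel plots the summit position in kb from the first 5' end (grey: gene body, horizontal scale set by gene) against the percentile of its signal within its own list (100 is the strongest) for the joint list and both replicates. The dashed line marks the weakest IDR peak in the joint list: only the end-3 summit at -2408 bp, circled, and the replicate summits beside it, at -2426 and -2402 bp, lie above it.

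Weak regions were present at most of the GATA factor genes. The number of genes with a joint summit was near that of other genes, while the median of joint summits per 10 kb was higher. In the joint list 7 of the 8 genes had a summit, against 68.4% of all genes, and the shares of their window-length classes summed to 5.88 genes. Replicate 2 had one at 5 of 8 genes, against 73.9% of all, and replicate 3 at 8 of 8, against 79.4%. Among joint regions with a −log10 q value over 2, only end-3 had any, against 41.4% of all genes. In total 22 separate joint summits fell in the windows, 1 of them an IDR peak. The signals of the other 21 had a median of 15.0, against 15.6 for all 17341 joint regions outside the IDR list. With a match taken as a summit within 150 bp, 14 of the 22 were matched in replicate 2, 10 in replicate 3, 5 in both (the IDR peak among them) and 3 in neither. Over all joint regions outside the IDR list, 33.7% were matched in both, and over IDR peaks 99.3%. Of the 20 with a −log10 q value of at most 2, 3 were matched in both, against 26.3% of all joint regions of that kind. Among the genes' strongest joint summits, only those of end-1 and end-3 were matched in both replicates. The same share over the strongest joint summits of all genes is not given here, so whether this is low cannot be said. Per 10 kb of window the 8 genes had a median of 2.61 joint summits, against 1.623 over all genes.

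The low count stood beside windows that were not short, with a median of 8042 bp against 7027 bp over all genes. Longer windows hold more summits: across 5 equal classes of window length, the share of all genes with an IDR summit ran from 27.8% to 48.3%. The GATA factor genes included 3 in the longest class, elt-1, elt-3 and egl-18, none of which had an IDR summit. Added over the 8 genes, the shares of their own classes came to 3.04 genes, against 1 observed. Ranked among all genes by the signal of the strongest joint summit in the window, end-3 stood at percentile 91.8, end-1 at 55.1, elt-1 at 54.0 and egl-18 at 47.9. Next came elt-7 at 45.5, elt-6 at 39.5 and elt-2 at 39.3, with elt-3 at the bottom among genes without a summit. Within their own length class elt-1 and egl-18 stood lower, at 36.4 and 29.5. The median distance from the first 5' end to the nearest IDR summit was 14558 bp for the 8 genes and 7454 bp for all.

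**Figure D3:**
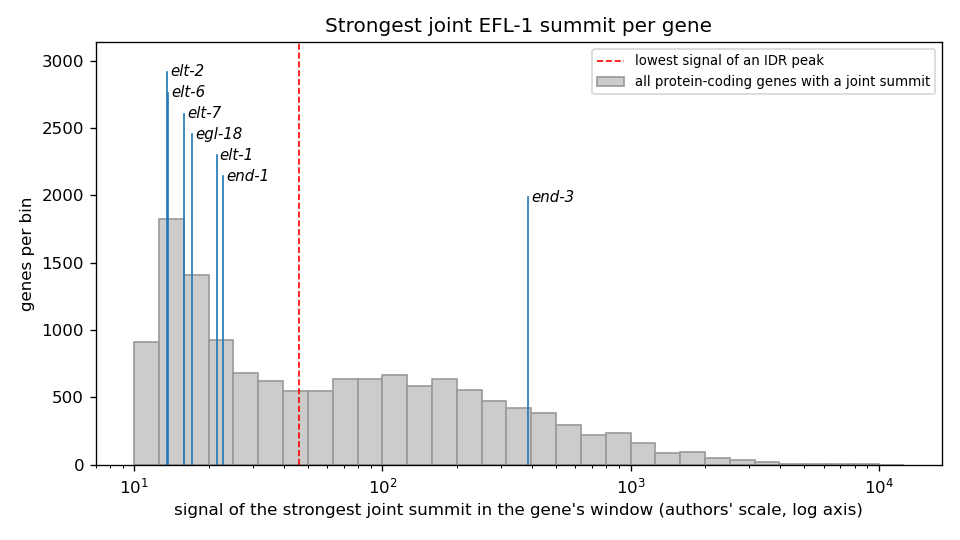
Strongest joint EFL-1 summit per gene. Grey bars count protein-coding genes by the signal of the strongest joint summit in the window (authors' scale, log axis), blue lines mark the 7 GATA factor genes that have one (line height carries no meaning), and the dashed red line is the lowest IDR signal, 46.3. Only end-3, at 385, lies to its right, while the other 6 lie between 13.6 and 22.8.

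The sequence patterns were spread unevenly over the 22 joint summits. An E2F-like pattern occurred within 100 bp of 5 of them (22.7%), against 18.7% of IDR peaks and 8.70% of joint regions outside the IDR list. Of these 5, 3 were the TTCCCGC of egl-18 introns (at 3640, 6344 and 6834 bp) and 2 lay upstream of end-3 (at -844 and -4438 bp). All 5 were outside the IDR list, and except at -844 bp their −log10 q values were only 0.0656 to 0.320. The summit at 3640 bp had no replicate summit within 150 bp. A GATA-like pattern lay near 7 of the 22 (31.8%), against 16.7% and 28.0%, and TTTGAA or TTCGAA near 6 (27.3%), against 44.7% and 49.99%. The windows of the 22 had a median GC content of 43.0%, against 42.3% for IDR peaks and 37.3% for the other joint regions. A part of base composition in these shares was not tested.

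The listed endoderm specification genes, which leave out the GATA factor genes med-1 and med-2, more often held an IDR summit by the same window rule. This list was chosen with earlier results of these data known. Of 9 genes upstream in endoderm specification, 7 had an IDR summit (77.8%): the maternal factor gene skn-1, pop-1 for the worm TCF protein, the beta-catenin genes sys-1 and wrm-1, the kinase gene lit-1, the Wnt receptor gene mom-5, and plp-1. Among summits nearest to the listed gene itself, wrm-1 had ranks 67 and 318 (at -2853 and -783 bp), sys-1 rank 248 (-265 bp) and pop-1 rank 639 (-123 bp). The best-ranked summits of skn-1 (rank 877) and lit-1 (rank 1202) lay in introns. Ahead of plp-1 (rank 263) and mom-5 (rank 1064) the summit lay nearer to another gene, F45E4.6 and algn-10. In the promoter window 6 of the 9 had an IDR summit. The 3 remaining GATA factor genes, elt-4 and the embryonic regulators med-1 and med-2, had neither an IDR nor a joint summit in their windows. The IDR summit of rank 4276 fell just outside the elt-4 window, 152 bp past the gene end. An elt-4 5' end, 564 bp away, was the nearest to that summit. In single replicates elt-4 had 1 summit, at -261 bp in replicate 2 (rank 10960), and med-2 had 2 in replicate 3 (ranks 12817 and 25885).

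Among the listed gut differentiation genes, the share with an IDR summit was near that of all genes. It was lower for the epidermal and seam regulators (7.69%) and the epidermal products (8.33%). Of 12 gut differentiation genes 4 had one (33.3%): the sphingosine phosphate lyase gene spl-1 (rank 324, nearer rps-24), the transporter gene pgp-1 (rank 1253, in an intron), the proton pump gene vha-6 (rank 2633, nearer VW02B12L.2) and the fatty acid elongase gene elo-2 (rank 4251). Among 13 epidermal and seam regulator genes only lin-1 had one (rank 4393, in an intron). Among 12 genes of epidermal products, only che-14 had one (rank 2515, nearer rad-8). The share over all genes stands at 34.7%, and the length classes would give 3.87 endoderm, 4.19 gut, 5.55 epidermal regulator and 3.91 epidermal product genes. The lists are short and none was tested.

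**Figure D4:**
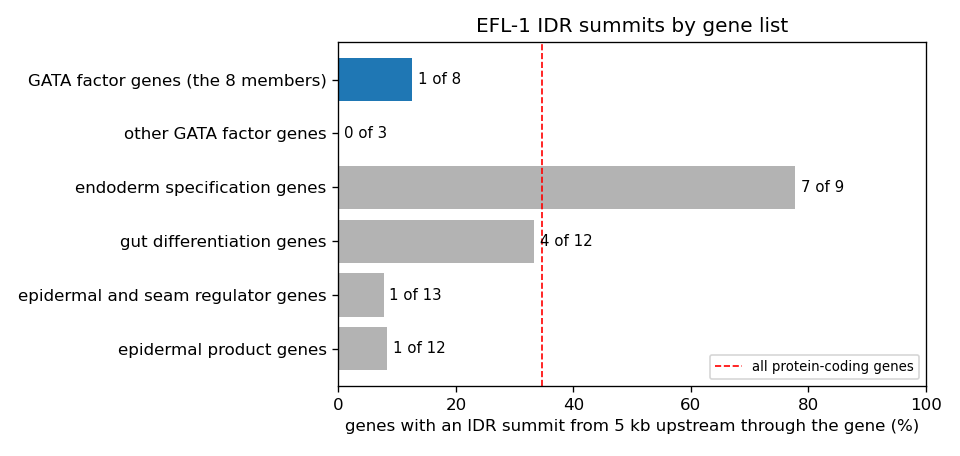
EFL-1 IDR summits by gene list. Bars give the percentage of each list's genes with an IDR summit from 5000 bp upstream through the gene, labelled with the counts, and the dashed line is the share over all protein-coding genes, 34.7%. The endoderm specification genes reach 7 of 9, the GATA factor genes 1 of 8.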

How the data were processed

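The texts deposited with the lists say that each replicate's peaks came from its own alignments and a control, the joint list from the alignments of both replicates, and the IDR list from the joint one. For aligner, caller and IDR threshold: not given in the sources used here. With the read depth unknown, no counting interval could be given. The signal and the −log10 q of each region are the authors' deposited values, used only to rank or filter within a list, and the q value was the same for all 4534 IDR peaks. These 4534 were the joint regions with the highest signal. The summit was the region start plus the deposited offset. The ce10 lists were not used here. Genes came from Ensembl release 115, and sequence from the RefSeq genome of the same build, whose chromosome lengths held every region.

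A summit counted for a gene within 5000 bp upstream of its first 5' end through its end. All 8 genes were named. Genes of the other lists were named where they had an IDR summit or encode a GATA factor, and are otherwise only counted. Every summit of the 8 was named, or beyond 6 joint summits the 3 strongest. Alternatives were other windows, region overlap, nearest genes, stricter or looser lists, each replicate alone and other match distances. The symbol opt-2 matched no gene. Members and lists were chosen with earlier results of these data known, and no tests were run. The counting code was tested on simulated data. Tools were Python 3.11.15, numpy 2.4.6, pandas 2.3.3 and matplotlib 3.10.9.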

Additional observations from a re-analysis of the deposited data

How the results depend on the processing

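The count of GATA factor genes with an IDR summit was 1, and 1 again in the stronger 2267 IDR peaks, in the joint regions with −log10 q over 2, and in as many of the strongest regions of either replicate alone. Over all genes these settings gave 21.4%, 41.4% and 34.2% to 34.7%. The count was 0 with 2000 bp upstream, 0 in the promoter window and 0 with nearest genes only, and 2 with region overlap, where the peak beside elt-4 reached the elt-2 window. The shares over all genes were then 25.6%, 19.7%, 18% and 35.6%. The number of summits moved alike, to 0 under the first 3 and to 2 with overlap, and it was also 2 with −log10 q over 2. Genes with a joint summit went from 7 to 3 in the promoter window, where 42% of all genes had one, and to 1 with −log10 q over 2 (41.4%). They numbered 5 with 2000 bp upstream (55.9% of all genes), 5 with nearest genes only (48.1%) and 7 with region overlap (69.4%). Leaving out a replicate, they ranged from 5 (without replicate 3, 73.9% of all genes) to 8 (without replicate 2, 79.4%). Strongest joint summits matched in both replicates went from 2 to 1 within 50 bp (end-3) and to 3 by region overlap (elt-2 added). For these matches no share over all genes is given. Of 20 alternative best ranks within the joint list, 5 differed: elt-1 went to 19503 in the promoter window, elt-2 to 4276 with overlap, and end-3 changed under 3 rules. The end-3 rank fell from 770 to 6128 under each of the 3 narrower rules, since the peak ahead of aip-1 no longer counted. There is 1 group, so no comparison between groups could be made, and an unknown depth limits what a missing region can show.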
